A study of Homo sapiens with 6 samples.

Results

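The kallikrein-related peptidases and their SPINK inhibitors are 10 genes that were looked up by exact symbol in the deposited RNA-seq table of PAX9-depleted cells. They are KLK5, KLK6, KLK7, KLK8, KLK10, KLK11 and KLK13, which encode secreted serine proteases, SPINK5 and SPINK6, which encode secreted inhibitors of such proteases, and LIPK, which encodes an acid lipase of the epidermis. All 10 were found, each on a single row of its own, among 26822 distinct gene symbols. MCF10A cells, an established line of non-tumorigenic human breast epithelial cells, received 30 nM of non-targeting siRNAs (siNT) or of siRNAs against PAX9 (siPAX9) for 72 hours, with 3 samples per group. All cells were the same line, grown with horse serum, epidermal growth factor, hydrocortisone, cholera toxin and insulin. The siRNAs are the only difference in treatment that is stated between siNT and siPAX9. Batches of cells or libraries are not given. PAX9 encodes a paired-box transcription factor, and the comparison asks which mRNAs changed after its depletion. Levels are FPKM (a unit of fragments per transcript length and per number of mapped reads), and the authors deposited 1 pooled FPKM per group. No sample has a value of its own, so no value below carries an error and no difference could be tested against the spread between samples.

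Kallikrein-related peptidases are made as inactive proenzymes and are switched on by cutting off a short propeptide, often by another member of the family. In the outer epidermis KLK5 and KLK7 cut the proteins of corneodesmosomes, the junctions that hold dead surface cells together, and so let the cells shed. LEKTI, the product of SPINK5, is processed into fragments that block KLK5, KLK7 and KLK14, and loss of SPINK5 causes Netherton syndrome, a disease of overactive skin proteases. KLK genes sit side by side in a single cluster on chromosome 19, and many of the SPINK genes sit together on chromosome 5.

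The targeted mRNA, PAX9, was at 2.80 FPKM in siNT and 0.325 in siPAX9. Over the 12557 genes that reached 1 FPKM in siNT and in siPAX9 the median log2 change was -0.08, so the groups were near balance. All 11 basal epithelial markers were above 1 FPKM in both groups, 6 of them higher in siPAX9 and 5 lower. The keratins KRT5 and KRT17 were at 1558 and 1807 and at 1718 and 2088, and TP63, the basal transcription factor, was at 35.4 and 25.3. KRT6A, at 368 and 959, was at least 2-fold higher, and VIM, or vimentin, at 301 and 53.5, at least 2-fold lower. Of 9 luminal markers, KRT8 and KRT18 were at 51.7 and 212 in siNT, while KRT19 was at 0.0258, ESR1 at 0.0560 and KIT listed at 0. In siPAX9, 6 of the 9 were higher, among them FOXA1 at 1.10 and 2.86 and GATA3 at 6.19 and 7.56, and 2 were lower. The list summed to 271 in siNT and 188 in siPAX9, with KRT18, the most abundant, at 212 and 119. Of 8 immune markers, CD3D and CD3E were listed at 0 in both groups and PTPRC reached 0.0922, but CD14 was at 14.4 and 56.5 and CSF1R at 0.699 and 4.69, so that the list summed to 15.2 in siNT and 61.3 in siPAX9. Of 7 fibroblast markers, 5 were higher in siPAX9 and 1 was lower. COL3A1 was listed at 0 in both groups and COL1A2 reached 0.00337, while COL1A1 was at 0.454 and 4.13. DCN was at 5.85 and 37.9 and the list summed to 6.40 and 42.2. The 5 endothelial markers summed to 3.95 and 2.49, with CDH5 listed at 0 in siNT. Of these 3 were higher in siPAX9, among them KDR at 0.798 and 1.94, and 2 were lower, PECAM1 at 2.58 and 0.495 and TEK at 0.572 and 0.0352. The 4 melanocyte markers summed to 3.34 and 4.29, with TYR listed at 0 in both groups. The part of these markers in the changes below was not tested. In pooled bulk RNA, more cells expressing a gene and more RNA per cell cannot be told apart.

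The promoters of 4 of the genes are shown because each holds the letters TATAA, the core of a TATA box, at the usual distance before its start. RefSeq promoter windows (250 bases before the transcription start and 50 from it on) were matched for 9 of the 10 genes, in 15 windows, and each window was found at exactly 1 place on GRCh37, which has the coordinates of hg19. KLK8 had no window. The windows are written 5′ to 3′ on the strand of the gene, and capitals mark TATAA where it begins 40 to 20 bases before the start (other copies are in lower case), and for SPINK6 also the AP-1 sequence TGANTCA.
KLK5, chr19:51456245-51456544, minus strand: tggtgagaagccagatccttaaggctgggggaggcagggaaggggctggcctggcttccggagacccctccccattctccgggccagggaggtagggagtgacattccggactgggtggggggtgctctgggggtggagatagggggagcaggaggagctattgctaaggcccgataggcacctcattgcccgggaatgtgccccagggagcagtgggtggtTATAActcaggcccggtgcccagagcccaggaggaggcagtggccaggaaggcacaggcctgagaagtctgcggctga
KLK7, chr19:51487124-51487423, minus strand: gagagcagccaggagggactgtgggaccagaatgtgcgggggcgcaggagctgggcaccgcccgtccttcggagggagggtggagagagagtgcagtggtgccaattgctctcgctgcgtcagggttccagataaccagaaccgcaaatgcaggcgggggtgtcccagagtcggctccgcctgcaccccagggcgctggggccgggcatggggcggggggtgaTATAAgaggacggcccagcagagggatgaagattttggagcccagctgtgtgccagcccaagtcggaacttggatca
SPINK5, chr5:147443293-147443592, plus strand: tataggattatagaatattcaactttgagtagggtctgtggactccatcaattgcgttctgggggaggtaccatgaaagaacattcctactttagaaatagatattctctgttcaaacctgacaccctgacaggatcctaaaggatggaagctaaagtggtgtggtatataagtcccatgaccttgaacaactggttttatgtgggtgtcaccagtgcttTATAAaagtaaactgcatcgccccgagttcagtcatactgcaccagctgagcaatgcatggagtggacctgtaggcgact
SPINK6, chr5:147582091-147582390, plus strand: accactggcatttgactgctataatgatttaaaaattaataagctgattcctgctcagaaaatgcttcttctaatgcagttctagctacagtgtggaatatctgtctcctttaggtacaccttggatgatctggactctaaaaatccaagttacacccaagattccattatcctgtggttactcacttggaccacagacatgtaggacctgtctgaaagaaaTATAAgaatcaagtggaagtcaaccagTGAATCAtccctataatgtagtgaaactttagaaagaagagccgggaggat

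TATAA was searched on the strand of the gene where its first base lay 40 to 20 bases before the start. It began 28 bases before the start in KLK5, 27 in KLK7, 30 in SPINK5 and 28 in SPINK6. It was found in 4 of the 9 genes with a window, against 4.94% of the 27305 genes in the RefSeq table, and in 4 of the 15 windows, against 3.91% of all 35093. The other windows of KLK7 and SPINK6, at alternative starts, did not hold it in that interval, nor did any window of KLK6, KLK10, KLK11, KLK13 or LIPK. The only LIPK window has its start at chr10:90466006, outside the measured LIPK locus, which begins at 90484301. It may thus not be the promoter of the RNA that was measured. The interval and letters were chosen after these windows had been seen. On both strands, the AP-1 sequence TGANTCA was found in 1 of the 9 genes, SPINK6, where it begins 1 base before the start, against 9.37% of all genes. GCGTG, the core of the element bound by the aryl hydrocarbon receptor, was found in KLK6 and KLK13, or 2 of 9 genes, against 40.6% of all genes. A pair of sequences of the kind bound by paired domains, GCGTGACCA and GCGGAACGG, of which the former contains GCGTG, was found in 0 of the 9, against 0.194% and 0.267% of all genes. They are 2 of the 4 PAX9 sequences that the paper scanned for over 1 kb, and the others were not searched for. At shares this low, 0 of 9 says little about PAX9 sites. The grainyhead sequence AACCGGTT was found in 0 of the 9, against 0.165%. A match or its absence is a statement about these letters in these windows only.

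All 10 genes were higher in siPAX9 than in siNT. With no minimum level, 10 of 10 were at least 2-fold higher, KLK13 and LIPK among them from a level of 0, against 18.6% of the 20409 genes above 0 in a group. That share covers genes of every level, so it is not matched to the low siNT levels of the 10. The same share among genes as low in siNT was not counted. In siNT every one of the 10 had an FPKM under 0.5, with the highest at 0.394 and 2 listed at 0. In siPAX9, 7 of the 10 reached an FPKM of at least 1, namely KLK5, KLK7, KLK8, KLK10, SPINK5, SPINK6 and LIPK. Of the 6557 genes that were under 0.5 in siNT and above 0 in a group, 326 (4.97%) reached that level. Where the larger of the values had to reach 1 FPKM, 7.75% of 13622 were at least 2-fold higher and 7.22% at least 2-fold lower. The 7 entered that set through siPAX9 alone and were bound to differ there, so their count in it is a description. The plot of FPKM by gene shows the distance between the groups for each gene on a log scale.

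**Figure D1:**
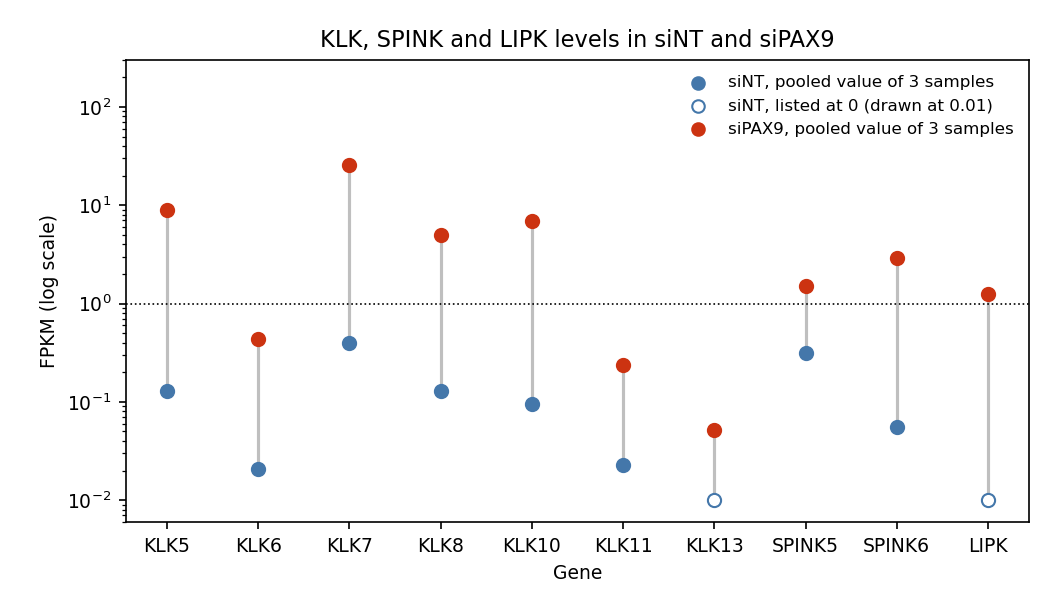
FPKM (log scale) of the 10 genes in siNT (blue) and siPAX9 (red), each point the authors' pooled value of 3 samples, with open circles for genes listed at 0 in siNT and a dotted line at an FPKM of 1. Every siPAX9 point lies above its siNT point, and 7 of the 10 siPAX9 points lie above the line.

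KLK7 encodes a protease of chymotrypsin-like specificity, first known from the outermost skin layer, and was the most abundant of the 10 in both groups. Its FPKM was 0.394 in siNT and 25.5 in siPAX9, 64.8 times as high, a log2 change of 6.02. With 1 added to each FPKM, which limits the weight of very low values, its log2 change was 4.25, the 53rd largest increase among the 13622 genes whose larger value reached 1 FPKM. KLK7 (chr19:51479735-51487320 on hg19, minus strand) shared no exon base with another annotated gene.

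KLK5 encodes a trypsin-like protease that can activate itself and the proenzymes of KLK7 and other members. Its FPKM was 0.128 in siNT and 8.97 in siPAX9, 70.0 times as high, a log2 change of 6.13. With 1 added, the log2 change was 3.14, the 84th largest increase. Its locus (chr19:51446559-51456344, minus strand) shares 202 exon bases with a long noncoding RNA on the opposite strand.

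KLK10 encodes a secreted family member whose mRNA is known to be lost in many breast cancer cells, and it showed the largest log2 change of the 8 genes that were above 0 in both groups. Its FPKM was 0.0949 in siNT and 6.98 in siPAX9, 73.5 times as high, a log2 change of 6.20. With 1 added, the log2 change was 2.87, the 108th largest increase. The order of the folds thus differs from the order of levels, since KLK7 started from the highest siNT value. KLK10 (chr19:51516000-51523431, minus strand) shares 240 exon bases with a noncoding RNA on the opposite strand.

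KLK8, or neuropsin, is a trypsin-like protease of epidermis and brain. Its FPKM was 0.130 in siNT and 5.03 in siPAX9, 38.8 times as high, a log2 change of 5.28. With 1 added, the log2 change was 2.42, the 144th largest increase. Its measured locus is chr19:51499264-51504958, minus strand. In the exon annotation KLK8 extends past this locus and shares 204 exon bases with its neighbour KLK9 on the same strand. It shares 747 with an annotated read-through transcript of both. The 204 bases lie outside the measured KLK8 locus, which does not overlap that of KLK9 (from chr19:51505769). How reads were divided between these loci was not tested. KLK9 was listed at 0 in siNT and had an FPKM of 0.745 in siPAX9.

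KLK6, KLK11 and KLK13 stayed under an FPKM of 1 in both groups, and the authors' status column marks all 3 as having too few reads to be tested. KLK6, a trypsin-like protease best known from brain and from ovarian tumours, went from 0.0207 in siNT to 0.440 in siPAX9, a log2 change of 4.41 that became 0.50 with 1 added. KLK11, a trypsin-like protease of many epithelia, was at 0.0228 and 0.236, with log2 changes of 3.37 and 0.27 on the same scales. KLK13 was listed at 0 in siNT and at 0.0518 in siPAX9, which gives no fold and a log2 change of 0.07 with 1 added. At these levels the folds rest on few reads, and the number of reads behind them is unknown. KLK6 lies at chr19:51461887-51472929, KLK11 at chr19:51525487-51531290 and KLK13 at chr19:51559463-51568367, all on the minus strand, and KLK6 shares 401 exon bases with the noncoding RNA that also overlaps KLK5 on the opposite strand.

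The summed FPKM of the 7 KLK genes was 0.790 in siNT and 47.2 in siPAX9. KLK5, KLK7, KLK8 and KLK10 made up 94.5% of that sum in siNT and 98.5% in siPAX9. The share of KLK7 alone was 49.8% in siNT and 54.0% in siPAX9. The ratio of the KLK7 level to the KLK5 level was 3.07 in siNT and 2.84 in siPAX9, so the proportion between these proteases differed little while each was 64.8 and 70.0 times as high. The order of levels in siPAX9 was KLK7, KLK5, KLK10, KLK8, KLK6, KLK11 and KLK13. In siNT it was KLK7, KLK8, KLK5, KLK10, KLK11, KLK6 and KLK13, where KLK8 and KLK5, at 0.130 and 0.128, and KLK11 and KLK6, at 0.0228 and 0.0207, were nearly level. Whether neighbours in either order differ beyond the spread between samples cannot be said from pooled values.

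The 4 KLK genes that reached 1 FPKM in siPAX9 lie near each other within the KLK cluster. The cluster holds 16 KLK genes, 1 of them the pseudogene KLKP1, over 265 kb. The 7 consecutive genes from KLK5 to KLK11 (KLK5, KLK6, KLK7, KLK8, KLK9, KLK10 and KLK11) cover 84.7 kb, and 7 of 7 were higher in siPAX9, 4 of them with an FPKM of at least 1 there, while 51.8% of the 20409 genes above 0 in a group were higher in siPAX9. The ends of this run were set after the values were seen, and KLK13 and KLK14 beyond it were also higher, at very low levels. Of the 6 genes before KLK5, KLK15, KLK3, KLK2, KLKP1 and KLK4 were listed at 0 in both groups, and KLK1 was at 0.205 in siNT and 0.0551 in siPAX9. KLK3 encodes the prostate-specific antigen. Of the 3 genes after KLK11, KLK12 was listed at 0 in both groups, KLK13 is given above, and KLK14, which encodes a trypsin-like protease that activates KLK5, was at 0.0272 and 0.0881. Levels within the run were uneven, with KLK6 at 0.440 in siPAX9 between KLK5 at 8.97 and KLK7 at 25.5.

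**Figure D2:**
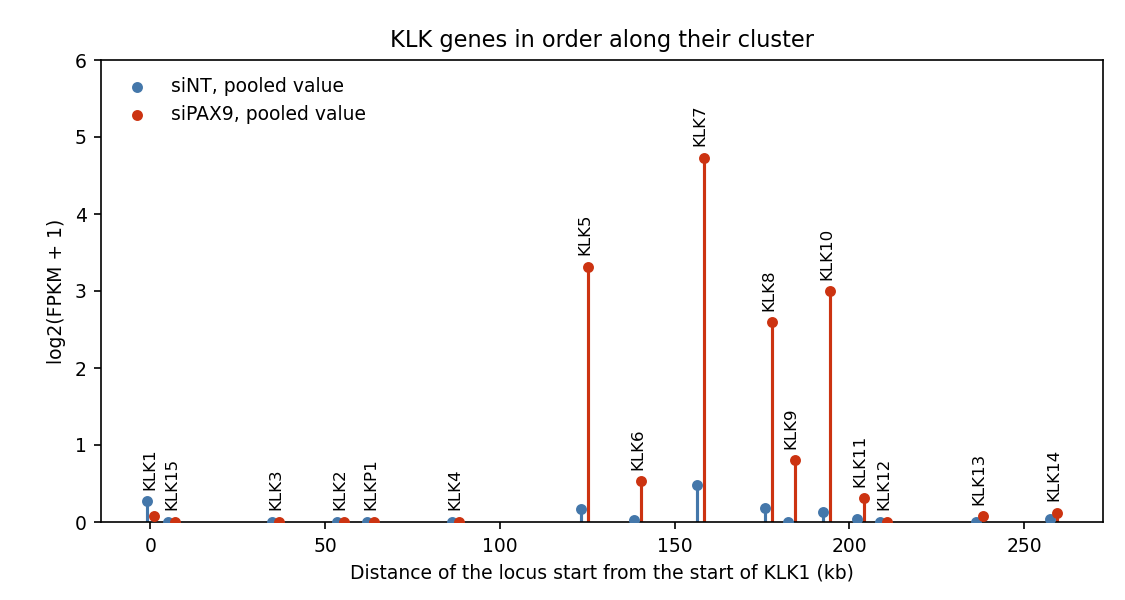
log2(FPKM + 1) of the 16 KLK genes against the distance of each locus start from that of KLK1 in kb, with siNT in blue and siPAX9 in red, each the authors' pooled value. Tall siPAX9 lines stand at KLK5, KLK7, KLK8 and KLK10, between 124.2 and 193.6 kb, and the genes on either side of the run from KLK5 to KLK11 lie near 0 in both groups.

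Among the genes that flank the KLK cluster, some were higher and some lower in siPAX9. CTU1, a tRNA-modifying enzyme gene that follows KLK14, was at 6.78 FPKM in siNT and 5.59 in siPAX9, a log2 change of -0.24 with 1 added. C19orf48, on the side of KLK1, was at 83.5 and 30.2, a log2 change of -1.44 with 1 added. The small nucleolar RNA genes SNORD88A, SNORD88B and SNORD88C are listed on the same locus as C19orf48. SNORD88A was listed at 0 in siNT and at 38.3 in siPAX9, a log2 change of 5.30 with 1 added that is larger than that of any KLK gene. SNORD88B was at 110 and 102 and SNORD88C at 150 and 121. Poly(A)+ libraries do not measure such short RNAs well. MGC45922, between C19orf48 and KLK1, was at 0.0675 and 0.0581, and CLEC11A, farther out on that side, at 0.367 and 1.06.

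Both SPINK genes were also higher in siPAX9. SPINK6 encodes a small inhibitor with a single Kazal domain that blocks several kallikreins of the skin. Its FPKM was 0.0556 in siNT and 2.92 in siPAX9, 52.4 times as high, a log2 change of 5.71 and of 1.89 with 1 added, the 228th largest increase. SPINK5, which encodes the multidomain inhibitor LEKTI, was at 0.311 FPKM in siNT and 1.51 in siPAX9. That is 4.85 times as high, a log2 change of 2.28, the smallest among the 8 members above 0 in both groups. With 1 added its log2 change was 0.94, short of 2-fold. By that measure 6 of the 7 members that reached 1 FPKM were at least 2-fold higher, and the share over all 13622 genes of that set was 5.00%. Those 7 entered the set through siPAX9 alone, so nothing is read from their count. SPINK5, on the plus strand, is annotated from chr5:147405246 on and shares 323 exon bases with a noncoding RNA on the opposite strand. These bases need not lie in its measured locus, chr5:147443535-147516925. SPINK6 lies at chr5:147582357-147594700, plus strand.

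The level of peptidase mRNA relative to inhibitor mRNA differed between the groups. The summed FPKM of the 7 KLK genes was 2.15 times that of SPINK5 and SPINK6 in siNT and 10.7 times in siPAX9. The ratio of KLK5 to SPINK5 was 0.412 in siNT and 5.94 in siPAX9, and the ratio of KLK7 to SPINK5 was 1.26 and 16.9. SPINK6 was at 0.179 of the SPINK5 level in siNT and at 1.93 times that level in siPAX9, so the order of the inhibitors turned. These ratios are of mRNA levels per transcript length, with siNT values close to the low end of the table, and say nothing of active enzyme.

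Other SPINK genes stayed low. Of 8 further family members, SPINK2, SPINK4, SPINK8 and SPINK14 were listed at 0 in both groups and SPINK13 was at 0.0446 and 0.0641. SPINK1, SPINK7 and SPINK9 were listed at 0 in siNT and had an FPKM of 0.233, 0.153 and 0.0710 in siPAX9. SPINK14, which lies between SPINK5 and SPINK6, was thus at 0 while both neighbours were higher in siPAX9. C5orf46, on the other side of SPINK5, was at 0.319 in siNT and 1.90 in siPAX9, and FBXO38, a ubiquitin ligase gene beyond the last SPINK gene, was at 13.7 and 14.4.

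LIPK encodes an acid lipase made by differentiated keratinocytes, and it belongs to another family than the proteases and their inhibitors. It was listed at 0 in siNT and had an FPKM of 1.25 in siPAX9, a log2 change of 1.17 with 1 added, the 531st largest increase. A listed 0 need not mean that no RNA was present. None of 15 housekeeping genes looked up was listed at 0 in a group, but the lowest of them stood at 9.25. They therefore cannot show how far a 0 can be trusted for a gene as low as LIPK. LIPK was 1 of 1260 genes listed at 0 in siNT and above 0 in siPAX9. Its neighbours on chromosome 10 in the same family did not share its level. LIPN, LIPM, LIPJ and LIPF, of which the first pair is also known from keratinocytes, were at most 0.0481 in both groups. LIPA, the lysosomal acid lipase, was at 42.8 in siNT and 54.5 in siPAX9, a log2 change of 0.34 with 1 added. The annotated exons of LIPK, within chr10:90466006-90512533 on the plus strand, shared no base with another annotated gene. Its measured locus, chr10:90484301-90513408, ends beyond them, and that end was not searched.

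**Figure D3:**
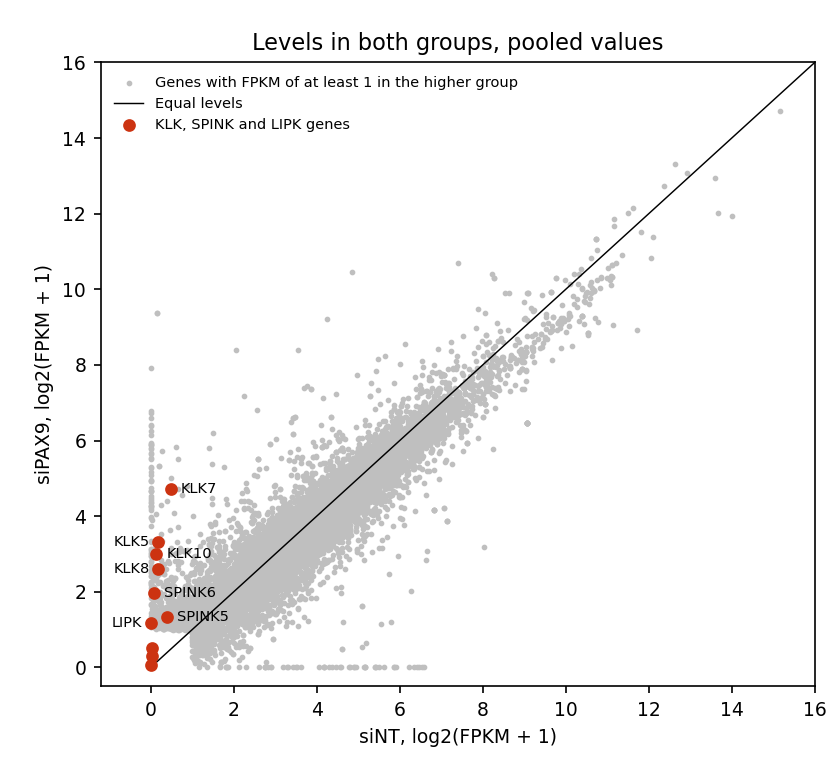
log2(FPKM + 1) in siPAX9 against siNT, with 1 grey point for each of the 13622 genes whose larger value reached 1 FPKM and red points for the 10 KLK, SPINK and LIPK genes; all values are pooled per group. The red points lie at the left edge, at siNT values under 0.5 FPKM and above the line of equal levels, with KLK7 highest.

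Of 12 known activators and receptors of kallikreins, 5 of the 7 that reached 1 FPKM in a group differed by less than 2-fold. ST14, which encodes matriptase, an activator of kallikrein proenzymes, was at 47.8 FPKM in siNT and 49.0 in siPAX9. PRSS8, or prostasin, was at 29.9 and 46.7, a log2 change of 0.64. F2RL1, which encodes PAR2, a receptor that KLK5 and KLK14 cleave, was at 33.3 and 18.4, a log2 change of -0.86. TMPRSS13, a membrane protease gene listed at 0 in siNT and at 2.58 in siPAX9, was the 1 at least 2-fold higher, and PLAT, which encodes tissue plasminogen activator, the 1 at least 2-fold lower, at 35.0 and 12.3, beside 7.75% and 7.22% over all genes of that level. TMPRSS13 entered that count through siPAX9 alone. The median log2 change of the 12, with 1 added, was 0.03, beside 1.53 for the 10 members and 0.01 for the 20409 genes above 0 in a group.

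Other proteases of epidermis, 19 genes, had a median of -0.06 by the same measure, with 1 at least 2-fold higher, 2 lower and 12 neither among the 15 whose larger value reached 1 FPKM, beside the same 7.75% and 7.22%. The higher one was CTSV, or cathepsin V, at 0.562 and 2.35, which entered through siPAX9 alone. BLMH, which encodes bleomycin hydrolase, was at 26.5 and 6.36, and PCSK6, a proprotein convertase gene short of 2-fold with 1 added, at 11.9 and 5.80.

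Protease inhibitors outside the SPINK family were measured for 23 genes, and 18 of them reached 1 FPKM in a group. Of these 7 were at least 2-fold higher, 3 at least 2-fold lower and 8 neither, beside 7.75% higher and 7.22% lower over all genes of that level. A2ML1, CST6 and WFDC12 entered that count through siPAX9 alone. The median log2 change of the 23 was 0.31 with 1 added. PI3, which encodes elafin, an inhibitor of neutrophil elastase, was at 28.0 in siNT and 1414 in siPAX9, the 20th largest increase of the 13622 genes with 1 added. SLPI, the secretory leukocyte protease inhibitor, was at 296 and 1358. A2ML1, a broad protease inhibitor of the epidermis, was at 0.0151 and 14.0. CST6, which encodes cystatin M/E, an inhibitor of cathepsin V and legumain, was at 0.335 and 3.94, and WFDC12 at 0.0392 and 2.31. SERPINA1, the main inhibitor of elastase in plasma, was at 82.3 and 16.7, lower in siPAX9. SPINT1, which encodes the matriptase inhibitor HAI-1, was at 54.5 and 67.9. SLPI and PI3 thus stood far above SPINK5 and SPINK6 in both groups on the FPKM scale.

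The proteins that KLK5 and KLK7 cut in skin were not all expressed. DSG1 and DSC1, the desmosomal cadherins of the corneodesmosome, were listed at 0 in siNT, and in siPAX9 DSG1 was at 0.0540 and DSC1 at 0. CDSN, or corneodesmosin, the third of these substrates, was at 0.855 and 2.21, a log2 change of 1.37 and under 2-fold with 1 added, and it is listed on 6 rows of which the one with the highest mean level was used. Among the other desmosomal cadherins, DSC2 was at 11.3 and 44.8 and DSG3 at 67.2 and 136, while DSG2 was at 58.4 and 57.5 and DSC3 at 57.5 and 42.3. CDH1, or E-cadherin, was at 45.3 and 124. IL36G, an epithelial cytokine, was at 0.0609 and 1.31, and HRNR, or hornerin, a protein of the cornified layer, at 0.756 and 1.99. Of the 14 genes in this list, 9 reached 1 FPKM in a group, with 6 at least 2-fold higher and 0 lower, beside 7.75% and 7.22% over all genes of that level. CDSN, IL36G and HRNR entered that count through siPAX9 alone, and CDSN and HRNR were short of 2-fold with 1 added. The median of the 14 was 0.56 with 1 added.

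Enzymes and carriers of barrier lipids, listed because LIPK acts on lipids, had a median of 0.08 over 29 genes. Of the 16 whose larger value reached 1 FPKM, 6 were at least 2-fold higher and 1 was lower, beside the same 7.75% and 7.22%. SULT2B1 and LIPH entered through siPAX9 alone, and SMPD1, at 3.35 and 6.81, was short of 2-fold with 1 added. SULT2B1, the cholesterol sulfotransferase, was at 0.0136 and 3.63, ABCA12, the keratinocyte lipid transporter, at 10.5 and 46.4, and LIPH, a phospholipase of hair follicle and skin, at 0.0386 and 1.63. ABHD5, a cofactor of triglyceride lipase, was at 13.8 and 33.1, and LIPG, or endothelial lipase, had a log2 change of 1.22. PLA2G4E, a phospholipase gene, was the lower one, at 16.4 and 7.39.

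**Figure D4:**
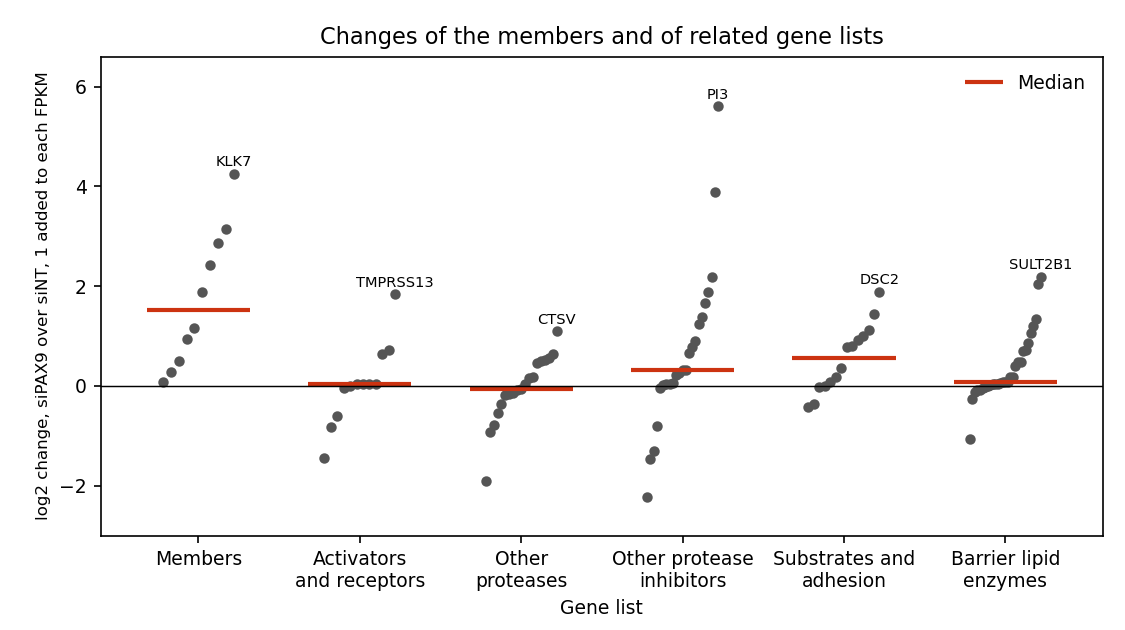
log2 change of siPAX9 over siNT with 1 added to each FPKM, 1 point per gene found, for the 10 members and for 5 related lists, with a red line at each median and the gene of the highest value named. The 10 members lie above 0 with a median of 1.53, and the medians of the other lists lie between -0.06 and 0.56.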

How the data were processed

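Poly(A)+ RNA of MCF10A cells was sequenced from 3 siNT and 3 siPAX9 samples as single-end reads. The authors worked in Partek Flow, where Bowtie 2 aligned reads (hg19) and Cufflinks quantified transcripts, and deposited 1 FPKM per group and locus over 41656 rows. The deposited fold changes, test statistics, p-values and q-values of the authors' own comparison were not used. How libraries were scaled to each other and whether they kept strand is not given in the sources used here. The table gives no depth or value per sample, so no interval, floor or leave-one-out value could be computed, and no test was made.

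Rows were split by symbol, and where a symbol had several rows the one with the highest mean FPKM was kept. Changes were log2(siPAX9/siNT), also with 1 added to both. The threshold was 2-fold, the fold of the study's methods, without the q value limit that the study also applied. Counts across genes took those whose larger value reached 1 FPKM, a minimum set here. The counting steps were checked on simulated data with known changes. Only genes with at least 1 FPKM in siNT were simulated, so the check did not cover levels as low as those of the members. Members and gene lists were chosen with earlier results of these data known. All members were named, and from each related list up to 6 genes past 2-fold with the largest change plus known partners. KLK, SPINK and lipase genes under 1 FPKM, C5orf46, FBXO38, CLEC11A, SMPD1, DSG2 and DSC3 were named after their values were seen. 1 gene of the immune marker list is not reported here.

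The table's starts count from 0 and were written from 1. Exons and strands came from GENCODE release 44 on GRCh37, and promoter windows from RefSeq (GRCh38.p14), located on GRCh37 by exact match. Python 3.11.15, numpy 2.4.6, pandas 2.3.3 and matplotlib 3.10.9 were used. The alternatives were another value added to FPKM, other filters and folds, centring on the median, and other ways to choose rows.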

Additional observations from a re-analysis of the deposited data

How the results depend on the processing

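All 10 genes kept the direction of higher in siPAX9 under every setting in which a change could be computed. The count of 7 members past 2-fold was 6 with 1 added, 10 with no minimum FPKM, and 7 at 1.5-fold, at 4-fold, after centring, with rows summed, with single-symbol rows and with rows of status OK. With FPKM of at least 1 asked of both groups it was 0, because none of the members reached 1 in siNT. The median log2 change of the 10, 1.53 with 1 added, was 4.02 with 0.1 added, 0.27 with 10 added and 2.42 over the 7 with FPKM of at least 1 in siPAX9, and it was 1.61 after centring. The size of each change depended on the value added, because the siNT levels are low. Among members whose fold, not logged, moved by over 1.5 times, the log2 changes with 1 added were 3.14 for KLK5, 0.50 for KLK6, 4.25 for KLK7, 2.42 for KLK8, 2.87 for KLK10, 0.27 for KLK11, 0.94 for SPINK5 and 1.89 for SPINK6. With 0.1 added they were 5.31 for KLK5, 2.16 for KLK6, 4.48 for KLK8, 5.18 for KLK10, 1.45 for KLK11, 4.28 for SPINK6 and 3.76 for LIPK. With 10 added they were 0.91 for KLK5, 0.06 for KLK6, 1.77 for KLK7, 0.57 for KLK8, 0.75 for KLK10, 0.03 for KLK11, 0.16 for SPINK5, 0.36 for SPINK6 and 0.17 for LIPK. Centring or summing rows moved no member's fold by over 1.5 times. No paired analysis was possible because the table holds 1 pooled value per group. For the same reason no sample could be left out, and a change carried by a single sample cannot be told apart from one shared by all 3.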
